A study of Mus musculus with 13 samples.

Results

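RNA-seq of mouse embryonic stem (ES) cells was used to follow the rows of a repeat count table that stand for satellite DNA, tRNA and other small RNAs. The members were the rows whose RepeatMasker class was Satellite, tRNA, snRNA, scRNA, srpRNA or RNA, without the rRNA row, and 89 of the 1553 rows met this rule. They comprised 60 tRNA rows, 12 snRNA rows, 9 satellite rows, 6 scRNA rows, the 7SLRNA row (class srpRNA) and the 7SK row (class RNA). The table held 1 library for each of 4 conditions. The WT cells were of the AinV15 line. The Dnmt1-/- cells were a null strain carrying the C allele of Dnmt1, the gene of the maintenance DNA methyltransferase. The other 2 libraries came from AinV15 cells that expressed, under doxycycline, dead Cas9 fused to a bacterial O-GlcNAcase (dCas9-OGA) or to its catalytically inactive form (dCas9-OGA-D242A), and these libraries are called OGA and D242A from here on. Both fusion lines carried 4 sgRNAs against IAP retrotransposons, so their comparison asks what the enzyme activity changes when the fusion protein is present in both. WT and Dnmt1-/- cells were further sequenced in 3 replicate libraries each, for which gene values but no repeat values were used. The labels do not tie the WT and Dnmt1-/- columns of the repeat table to any of these replicates.

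Satellites are tandem repeats, and the major satellite packs the pericentric heterochromatin of mouse chromosomes, where DNA methylation and H3K9 methylation are dense. Transfer RNAs, U6, 7SK, 7SL and BC1 are products of RNA polymerase III, whereas U1, U2, U4 and U5 are made by RNA polymerase II. Most of these RNAs have no poly(A) tail, and the labels give poly(A) RNA as the material of every library. A member's count is therefore what passed this selection, and a level in the table is not the level in the cell.

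Counts were scaled to cpm, that is per 1000000 gene counts of the same library. The 4 libraries held between 18693531 (Dnmt1-/-) and 25097983 (WT) gene counts. With 1 library per condition no test was possible, and each 95% interval given for a ratio of counts (exact, from the binomial distribution) covers counting error only. Dnmt1 itself stood at 455 cpm in WT, 62.9 cpm in Dnmt1-/-, 546 cpm in OGA and 376 cpm in D242A, so the Dnmt1-/- library was lowest, as its label says. The rRNA row, which is no member, stood at 19066, 30731, 22126 and 29845 cpm in WT, Dnmt1-/-, OGA and D242A. Repeat rows as a whole were also shifted on this scale: over the rows with at least 100 counts in a pair of libraries the median log2 ratio was 0.29 for OGA against D242A, 0.33 for Dnmt1-/- against WT, 0.61 for OGA against WT and 0.32 for D242A against WT. The total of repeat counts without the rRNA row, another scale used below, was 700917, 620977, 1163096 and 797698 in WT, Dnmt1-/-, OGA and D242A. It contains the IAP rows that the sgRNAs target, and the study reports IAP transcription as reactivated in OGA cells. A lower share in OGA can thus go with a larger total, and the part of the IAP rows in these shares was not tested.

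The sequences below are of genes tied to the leading tRNA and scRNA rows by codon, name or alignment only. No sequence is printed for the satellite rows. The tRNA class was led by rows named tRNA-Ser-TCA(m) and tRNA-Leu-TTA(m). The files do not explain the mark (m). The mitochondrial tRNA genes of mouse that read the same codons are mt-Ts1 (chrM:6870-6938, minus strand) and mt-Tl1 (chrM:2676-2750, plus strand), printed 5′ to 3′ from RefSeq on GRCm38 with the anticodon in capitals.
mt-Ts1: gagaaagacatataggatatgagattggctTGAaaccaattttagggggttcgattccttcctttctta
mt-Tl1: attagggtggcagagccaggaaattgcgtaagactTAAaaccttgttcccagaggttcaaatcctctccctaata
The gene mt-Ts1 shares 3 bases with the end of mt-Co1 (COX1 in RefSeq), which lies on the opposite strand. The gene mt-Tl1 abuts the large mitochondrial rRNA gene mt-Rnr2 on one side and ND1 on the other. A search of the nuclear chromosomes over at least 90% of each gene's length found 4 sites for mt-Ts1, of which 2 were identical to it, and 0 for mt-Tl1. Which genomic copies the reads of both rows came from was not tested. In the gene table of the same 4 libraries all 37 mitochondrial genes were listed at 0, so those genes gave no second reading.

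The scRNA class was led by BC1_Mm. BC1 is a rodent small RNA, abundant in neurons, that arose from a tRNA-Ala gene. Its RefSeq gene Bc1 (chr7:144914470-144914623, plus strand, GRCm38) is shown beside the nuclear tRNA-Ala gene that aligned to it best, n-TAagc18 (chr13:21242570-21242641, plus strand). Capitals in Bc1 mark the part aligned to that tRNA, and capitals in the tRNA mark its anticodon.
Bc1: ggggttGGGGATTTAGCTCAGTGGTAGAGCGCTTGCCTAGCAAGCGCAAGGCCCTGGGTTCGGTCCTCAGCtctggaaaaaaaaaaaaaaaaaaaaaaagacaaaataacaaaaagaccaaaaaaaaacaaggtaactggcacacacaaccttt
n-TAagc18: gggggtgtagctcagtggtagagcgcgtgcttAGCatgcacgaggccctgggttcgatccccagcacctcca
Over 65 aligned columns 56 bases were identical (86.2%). The best local alignments of Bc1 to the 33 nuclear tRNA-Ala genes of the annotation spanned from 13 to 70 columns, so their identities are not comparable between genes. Reads of such related sequences can be divided between the BC1_Mm and tRNA-Ala rows, so the values of both are uncertain in that respect.

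Counts over the 89 rows were very uneven. In all, 16 rows were at 0 in the 4 libraries, 65 rows (these 16 included) had under 20 counts summed, 15 rows had at least 100, and 31 rows were detected in every library. Members took 11926 counts in WT, 31310 in Dnmt1-/-, 25050 in OGA and 26771 in D242A, or 475, 1675, 1004 and 1078 cpm. This was 1.70%, 5.04%, 2.15% and 3.36% of the repeat counts without the rRNA row. The WT library was lowest by both measures. Most of the counts lay in the 3 rows MMSAT4, tRNA-Ser-TCA(m) and tRNA-Leu-TTA(m). The 86 members without them summed to 94.1, 103, 151 and 160 cpm in WT, Dnmt1-/-, OGA and D242A. Dnmt1-/- was then 1.10-fold above WT (95% interval 1.03 to 1.17), against 3.52-fold (3.45 to 3.60) for all members, while OGA and D242A were still 1.61-fold (1.53 to 1.69) and 1.70-fold (1.62 to 1.79) above WT. As a share of repeat counts these 86 rows took 0.337%, 0.311%, 0.325% and 0.498%, so by that measure WT was not lowest.

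**Figure D1:**
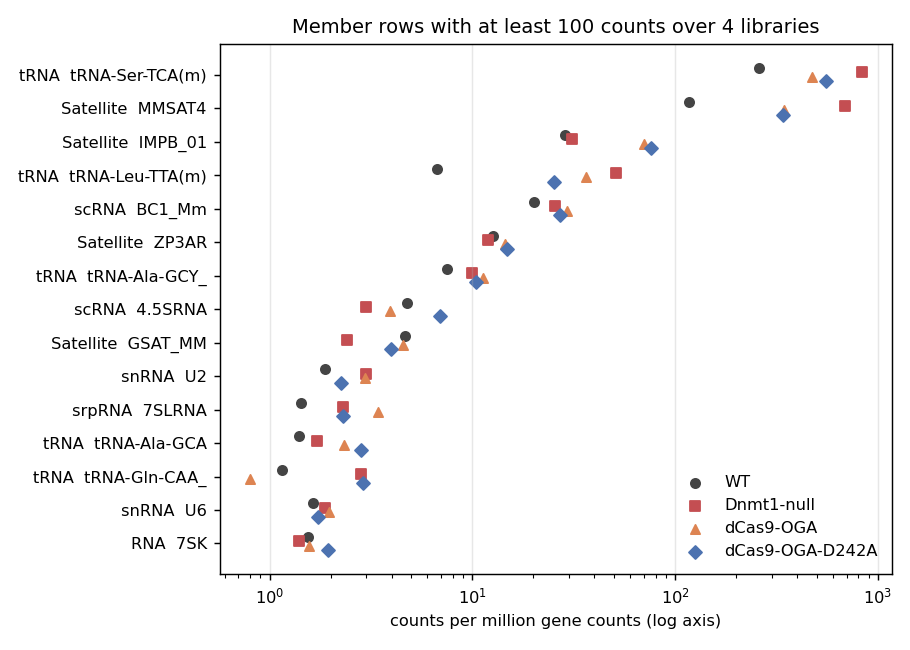
Level of the 15 member rows with at least 100 counts summed over the 4 libraries, in cpm on a log axis, with 1 point per library. WT is the lowest library for tRNA-Ser-TCA(m), MMSAT4 and tRNA-Leu-TTA(m), both fusion libraries are above WT and Dnmt1-/- for IMPB_01, and the points lie close together for ZP3AR, U6 and 7SK.

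Among satellites, MMSAT4 was counted 2920 times in WT, 12856 times in Dnmt1-/-, 8541 times in OGA and 8466 times in D242A. These counts are 116, 688, 342 and 341 cpm, highest in Dnmt1-/- and lowest in WT. In these bulk libraries fewer cells that make an RNA and less of it per cell cannot be told apart. Dnmt1-/- was 5.91-fold above WT (5.68 to 6.16), and the fusion libraries were 2.94-fold (2.82 to 3.07) and 2.93-fold (2.81 to 3.06) above WT on gene counts. On the total of repeat counts without the rRNA row the log2 ratio of OGA to WT went from 1.55 to 0.82. Between OGA and D242A the ratio of MMSAT4 was 1.00 (0.974 to 1.03) on gene counts. On other scalings MMSAT4 was lower in OGA than in D242A, by a log2 ratio of -0.28 on the total of DNA transposon counts, -0.29 relative to the median repeat row and -0.53 on the total of repeat counts without the rRNA row.

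IMPB_01 had another order. It stood at 28.6 cpm in WT, 31.0 in Dnmt1-/-, 70.2 in OGA and 76.0 in D242A. Both fusion libraries were above WT, by 2.45-fold (2.25 to 2.68) and 2.66-fold (2.44 to 2.90), while Dnmt1-/- was within counting error of WT at 1.08-fold (0.970 to 1.21). On the total of repeat counts the log2 ratio to WT was 0.55 in OGA, 1.20 in D242A and -0.13 in Dnmt1-/-. Relative to MMSAT4 in the same library, IMPB_01 had 0.246 counts per MMSAT4 count in WT, 0.205 in OGA, 0.223 in D242A and 0.0451 in Dnmt1-/-.

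The major satellite row, GSAT_MM, had few counts: 117 in WT, 45 in Dnmt1-/-, 113 in OGA and 98 in D242A, or 4.66, 2.41, 4.53 and 3.95 cpm. Dnmt1-/- was lowest, 1.94-fold below WT (1.36 to 2.80), and on gene counts the other 3 libraries did not differ beyond counting error, OGA being 1.15-fold (0.867 to 1.52) of D242A. On the total of repeat counts OGA and D242A were below WT, at log2 ratios of -0.70 and -0.40, and OGA was below D242A at -0.30. ZP3AR ran from 12.0 cpm in Dnmt1-/- to 14.8 cpm in D242A. The fifth satellite row by counts, SYNREP_MM, had 4, 1, 9 and 6 counts in WT, Dnmt1-/-, OGA and D242A. The 5 satellite rows other than MMSAT4, IMPB_01, ZP3AR and GSAT_MM summed to between 4 and 10 counts a library, too few to compare.

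Most tRNA counts lay in a single row. tRNA-Ser-TCA(m) had 6477 counts in WT, 15569 in Dnmt1-/-, 11823 in OGA and 13700 in D242A, or 258, 833, 474 and 552 cpm. Dnmt1-/- was 3.23-fold (3.13 to 3.32) above WT, OGA 1.84-fold (1.78 to 1.89) and D242A 2.14-fold (lower bound 2.08). On the total of repeat counts these log2 ratios to WT were 1.44, 0.14 and 0.89, and scaled on DNA transposon counts they were 1.23, 0.15 and 0.66, so OGA was close to WT on both of these scalings. Between the fusion libraries OGA was 1.16-fold lower (1.14 to 1.19). The rRNA row had the same order of the 4 libraries, and its part in this result was not tested.

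tRNA-Leu-TTA(m) had 167 counts in WT, 953 in Dnmt1-/-, 910 in OGA and 629 in D242A, or 6.65, 51.0, 36.5 and 25.3 cpm. Its ratio of Dnmt1-/- to WT, 7.66 (6.49 to 9.09), was the largest among the members compared. Unlike the serine row it was higher in OGA than in D242A, by 1.44-fold (1.30 to 1.60) on gene counts, while on the total of repeat counts the log2 ratio was -0.01. The leucine row made up 2.51% of the counts of both rows in WT, 5.77% in Dnmt1-/-, 7.15% in OGA and 4.39% in D242A, so the rows did not move in a fixed proportion. Over the 4 libraries and the 15 members with at least 100 counts, the patterns nearest to MMSAT4 were those of tRNA-Leu-TTA(m), at a Euclidean distance of 0.59 on centred log2(cpm + 0.5), and tRNA-Ser-TCA(m), at 0.65, followed by U2 at 1.44. These 4 points per row share their libraries and depths.

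The 58 remaining tRNA rows, of nuclear tRNA names, had far fewer counts. The 4 tRNA-Ala rows summed to 9.64, 12.1, 14.1 and 14.1 cpm in WT, Dnmt1-/-, OGA and D242A. As a share of repeat counts they took 0.0345%, 0.0364%, 0.0303% and 0.0440%, and by this measure OGA was 0.877-fold of WT (0.742 to 1.04). Of these tRNA-Ala-GCY_ held 189, 186, 282 and 258 counts and tRNA-Ala-GCA 35, 32, 58 and 70. The pattern of tRNA-Ala-GCY_ was the nearest to that of BC1_Mm, at a distance of 0.033 over the 4 libraries.

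The other 54 tRNA rows, those of no alanine and no mark (m), were lower in OGA than in the other 3 libraries. They summed to 156 counts in WT, 138 in Dnmt1-/-, 82 in OGA and 187 in D242A, or 6.22, 7.38, 3.29 and 7.53 cpm. The OGA library was 2.29-fold below D242A (1.76 to 3.01) and 1.89-fold below WT (1.44 to 2.50) on gene counts, or 3.16-fold below WT (2.40 to 4.18) as a share of repeat counts, and Dnmt1-/- was within counting error of WT at 1.19-fold (lower bound 0.938). Of the 45 rows with a count in any library, 29 had fewer counts in OGA than in D242A, 12 had more and 4 had the same number, and 48 of the 54 rows had under 20 counts. The row tRNA-Gln-CAA_ held 29, 53, 20 and 72 of these counts. Without it OGA was 1.86-fold below D242A (1.36 to 2.58). By amino acid, glycine rows had 28, 16, 10 and 15 counts, histidine rows 20, 12, 4 and 6, and arginine rows 12, 2, 2 and 5, each highest in WT, whereas tryptophan had 4, 6, 0 and 13.

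**Figure D2:**
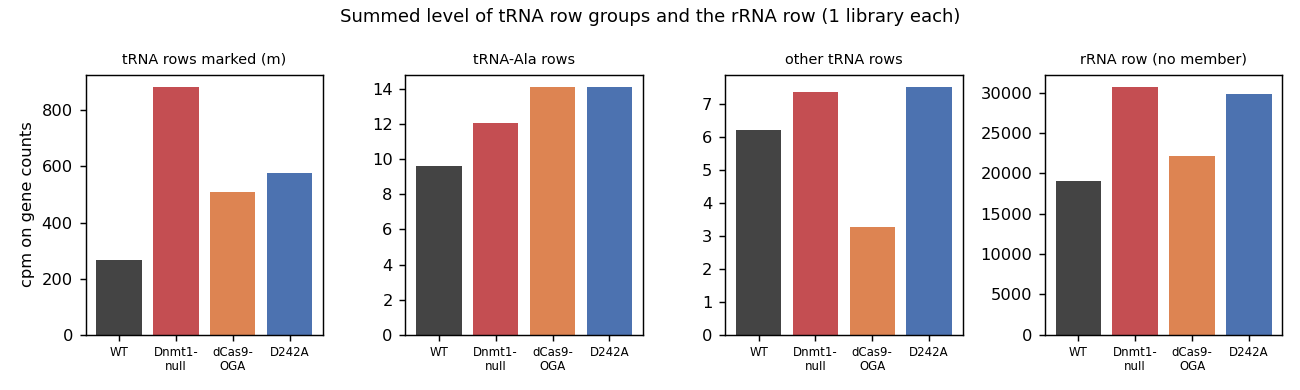
Summed cpm of the tRNA-Ser-TCA(m) and tRNA-Leu-TTA(m) rows, the 4 tRNA-Ala rows, the other 54 tRNA rows and, for reference, the rRNA row, with 1 bar per library and a separate scale from 0 in each panel (D242A is the inactive fusion). The rows marked (m) are lowest in WT and highest in Dnmt1-/-, and the other 54 rows are lowest in OGA.

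Other small or nuclear RNAs and the histone mRNAs, most of them without a standard poly(A) tail, were read from the gene table of the same libraries. Rpph1, the RNA subunit of RNase P, which trims the 5′ ends of tRNA precursors, had 50 counts in WT, 39 in Dnmt1-/-, 32 in OGA and 101 in D242A. It was 3.17-fold lower in OGA than in D242A (2.11 to 4.88). The replication-dependent histone genes, whose mRNAs end in a stem-loop, summed to 64.6 cpm in WT, 74.5 in Dnmt1-/-, 40.7 in OGA and 94.2 in D242A. Malat1, a nuclear RNA whose end is a triple helix, stood at 76.6, 143, 109 and 225 cpm and was 2.07-fold lower in OGA than in D242A (1.97 to 2.16). Rmrp, the RNA of RNase MRP, did not differ beyond counting error between these libraries (1.29-fold lower, 0.887 to 1.88). Neat1, the RNA of paraspeckles, whose short form does carry a poly(A) tail, was 1.65-fold higher in OGA (1.44 to 1.90). Between the single libraries Dnmt1-/- was above WT for Malat1, by 1.87-fold (1.76 to 1.99), and for Neat1, by 1.42-fold (1.15 to 1.74). In the replicate libraries both genes were called lower in Dnmt1-/-, Malat1 at a log2 fold change of -0.22 (limma adjusted p = 0.029) and Neat1 at -0.43 (limma adjusted p = 0.0036), with groups that overlapped for both. The part of these RNAs in the tRNA result was not tested.

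The scRNA rows were led by BC1_Mm, with 505 counts in WT, 477 in Dnmt1-/-, 727 in OGA and 672 in D242A, or 20.1, 25.5, 29.1 and 27.1 cpm. WT was lowest on gene counts, and OGA was 1.08-fold of D242A (0.968 to 1.20). Relative to the median repeat row BC1_Mm was not higher in OGA than in WT (log2 ratio -0.09). The row 4.5SRNA, a rodent RNA made by RNA polymerase III, had 120, 56, 98 and 172 counts, and was lower in OGA than in D242A by 1.76-fold (1.37 to 2.28) and lower in Dnmt1-/- than in WT by 1.60-fold (1.15 to 2.23). The 4 Y RNA rows summed to 1 to 5 counts a library.

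Of the spliceosomal RNAs, U2 had 47, 56, 74 and 56 counts and U6 41, 35, 49 and 43 in WT, Dnmt1-/-, OGA and D242A. U1, U4 and U5 had at most 8 counts in any library, and U3, which guides the processing of ribosomal RNA, had 8, 8, 9 and 13. U6 stayed within counting error of WT in the other 3 libraries, and U2 was above WT by 1.60-fold in Dnmt1-/- (1.07 to 2.41) and by 1.58-fold in OGA (1.08 to 2.33), the second of which turned to a log2 ratio of -0.06 on the total of repeat counts. 7SLRNA, the RNA scaffold of the signal recognition particle, had 36, 43, 85 and 57 counts. It was highest in OGA, 2.37-fold above WT (1.59 to 3.61) on gene counts and 1.42-fold of it (0.953 to 2.16) as a share of repeat counts. 7SK, which holds the elongation kinase P-TEFb inactive, had 39, 26, 39 and 48 counts and on gene counts the interval of its ratio held 1 in each of the 4 comparisons. As a share of repeat counts it was 1.66-fold lower in OGA than in WT (1.04 to 2.66).

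Members were then read against all repeat rows. A row was compared when it had at least 100 counts in the pair of libraries and counted as different at a 2-fold change of cpm + 0.5. In OGA against D242A, 0 of the 12 members compared passed, against 5.05% of all 634 rows (4.73% higher and 0.315% lower), and the median log2 ratio was 0.05 for members. The members farthest from equality were 4.5SRNA at -0.75 and tRNA-Leu-TTA(m) at 0.52. In Dnmt1-/- against WT, 3 of 10 members were higher and 0 lower, against 4.25% and 1.06% of the 565 rows (5.31% either way). These were tRNA-Leu-TTA(m) at a log2 ratio of 2.85, MMSAT4 at 2.56 and tRNA-Ser-TCA(m) at 1.69, which ranked 2, 3 and 7 among the 565 rows. The members just outside were U2 at 0.56 among those higher and GSAT_MM at -0.83 among those lower, and the median was 0.36 for members. In WT and Dnmt1-/- U2 had 47 and 56 counts and GSAT_MM 117 and 45. Both reached the minimum of 100 only through the library in which they were higher, so their places are a description.

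The comparisons of the fusion libraries with WT share the WT library with each other and with that of Dnmt1-/-. In OGA against WT, 4 of 11 members were higher, against 15.7% of the 618 rows, with 0 members and 0.971% of rows lower (16.7% of rows either way). They were tRNA-Leu-TTA(m) at 2.37, MMSAT4 at 1.55, IMPB_01 at 1.28 and, just inside, 7SLRNA at 1.01, while tRNA-Ser-TCA(m) was just outside at 0.88. The median was 0.56 for members. In D242A against WT, 5 of 12 members were higher, against 4.07% of the 590 rows, with 0 members and 2.88% of rows lower (6.95% of rows either way). They were tRNA-Leu-TTA(m) at 1.85, MMSAT4 at 1.55, IMPB_01 at 1.39, tRNA-Ser-TCA(m) at 1.09 and, just inside, tRNA-Gln-CAA_ at 1.04, and tRNA-Ala-GCA was just outside at 0.81. 7SLRNA (36 and 85 counts), tRNA-Gln-CAA_ (29 and 72) and tRNA-Ala-GCA (35 and 70) reached the minimum of 100 only through the library in which they were higher, so their places in these counts are a description. The median was 0.65 for members. Relative to the median repeat row, 1 member (tRNA-Leu-TTA(m)) remained 2-fold higher in OGA and 3 in D242A.

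**Figure D3:**
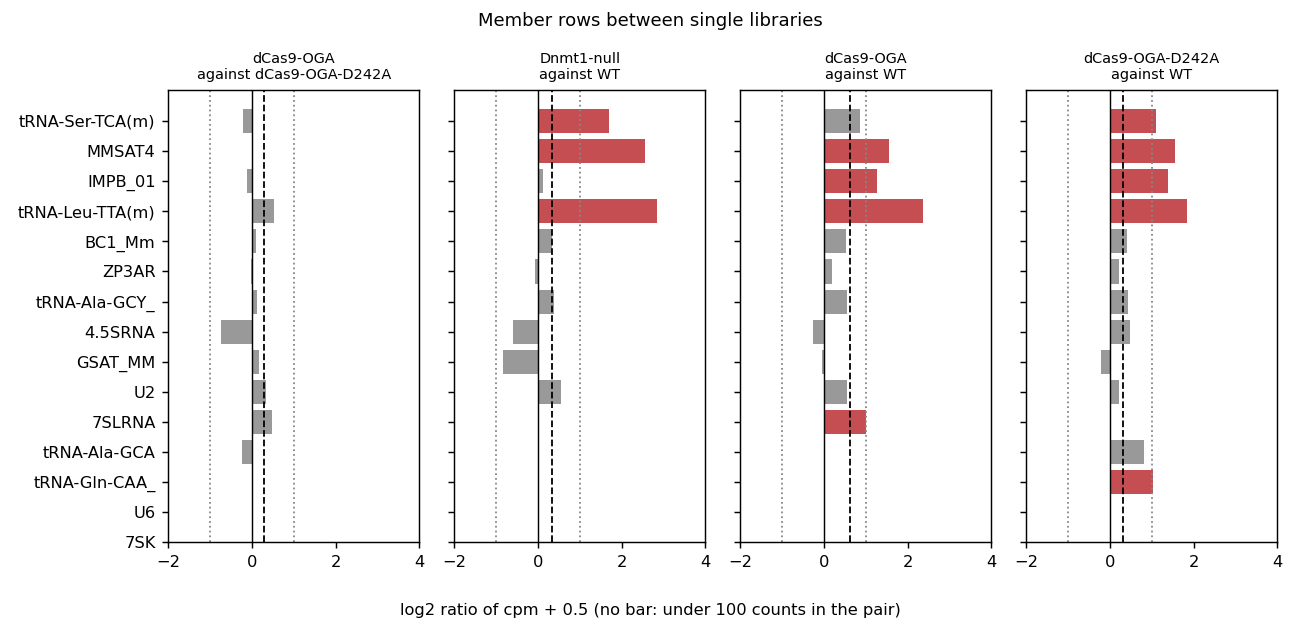
Log2 ratio of cpm + 0.5 for the 15 member rows with at least 100 counts over 4 libraries, 1 panel per pair of libraries. Bars in red are at least 2-fold higher, dotted lines mark a 2-fold change either way, the dashed line is the median of all repeat rows compared, and a row with under 100 counts in the pair has no bar. No member passes in the panel of OGA against D242A, and tRNA-Leu-TTA(m) and MMSAT4 pass in each panel against WT.

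The replicate libraries give an error for genes that encode small RNAs or act on them. In these, Dnmt1 had a normalized signal of 336 ± 24.1 in WT and 75.5 ± 2.02 in Dnmt1-/- (SD, n = 3 each). Of 17297 genes tested with limma, 71.2% passed an adjusted p of 0.05, so a called gene was common. Of all tested genes 6196 (35.8%) were higher and 6128 (35.4%) lower in Dnmt1-/-. These shares are the background for each list and marker set below. How many of all tested genes had groups without overlap was not counted. Of the 125 tested genes in 6 lists on small RNA biology and heterochromatin, 69 were higher and 20 lower, which is the same share of 71.2%. Between the single Dnmt1-/- and WT libraries 51 of these 89 genes had the same direction, 37 the opposite and 1 was listed at 0. Of the genes named for these lists, Hexim1, Trove2, Snapc4, Snapc5, Gtf3c6, Polr3k, Tsen54, Snrpc, Cenpa, Cbx3 and Rpph1 had the opposite direction there. Hexim1, for example, had 233 cpm in WT and 171 in Dnmt1-/-. Some of these differences were very small, with log2 ratios of -0.006 for Cenpa and 0.01 for Polr3k. The interval of the Rpph1 ratio held no change (0.671 to 1.62). The labels do not say whether replicates were separate cultures, and p-values measure only the spread between these libraries.

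Markers of cell types were read in the same libraries. Of 10 fibroblast markers 9 were lower and 1 higher in Dnmt1-/-, with a summed signal of 1506 to 2147 in WT and 318 to 351 in Dnmt1-/-, and none of the 10 was at 0 in any replicate library. Of 9 ES cell markers tested 2 were higher and 3 lower, with summed signals of 5773 to 5920 and 5614 to 6004. Of 12 markers of the 2-cell-like state 1 was higher and 9 lower. The replication-dependent histone genes were lower for 21 of 54 and higher for 0, against 35.4% and 35.8% of all tested genes. Of the 21, 2 were at least 2-fold lower. In the single libraries the fibroblast markers summed to 79.1 cpm in WT, 40.1 in Dnmt1-/-, 62.4 in OGA and 82.7 in D242A. The signal of all genes in a WT replicate summed to 959084 to 964265, which is close to the cpm scale. The fibroblast markers were thus far lower in the single WT library than in the WT replicates. The ES cell markers summed to 5985, 4890, 6544 and 4659 cpm in the single WT, Dnmt1-/-, OGA and D242A libraries. The 2-cell-like markers set the single WT library apart: without Eif1a, which was expressed in all 4, 10 of the 11 genes were highest in WT and the other was at 0, with 920 counts summed in WT against 27 in Dnmt1-/-, 11 in OGA and 39 in D242A. Among them Usp17la had 377, 12, 3 and 9 counts and Zscan4d 138, 5, 2 and 12. WT was also the library in which MMSAT4 and both rows marked (m) were lowest. The part of these markers in the repeat values and in the gene values that follow was not tested.

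Of the small RNA genes themselves 3 were tested and all 3 were lower in Dnmt1-/-, against 35.4% of all tested genes. Rn7sk (chr9:78175302-78175633 in RefSeq on GRCm38), the gene of 7SK, had a signal of 10.9, 12.3 and 11.2 in WT and 7.73, 7.10 and 6.71 in Dnmt1-/-. The groups did not overlap, and the log2 fold change was -0.64 ± 0.091 (SE, limma adjusted p = 9.4e-07) on log2(signal + 0.5). In the repeat table the 7SK row of the single libraries gave a ratio of 0.895 (0.523 to 1.51), an interval that also holds no change, and Rn7sk was listed at 0 in the gene table of those libraries. Rpph1 (chr14:50807447-50807771) had a signal of 4.32, 5.61 and 5.82 in WT and 3.97, 4.11 and 3.87 in Dnmt1-/-, without overlap (log2 fold change -0.35, limma adjusted p = 0.0099). Terc, the RNA of telomerase, had under 1.2 in each library and its groups overlapped (-0.40, limma adjusted p = 0.046).

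Genes of RNA polymerase III and its factors were called higher for 15 of 30 and lower for 4 (all tested genes: 35.8% and 35.4%). Polr3g (chr13:81673837-81711013), a subunit of the polymerase prominent in pluripotent cells, had a signal of 59.4, 54.2 and 55.1 in WT and 136, 131 and 130 in Dnmt1-/-. This was a log2 fold change of 1.23 ± 0.051 (SE, limma adjusted p = 2.6e-16). Snapc2 and Snapc4, subunits of the complex that starts snRNA transcription, followed at 0.52 and 0.47. The largest falls were smaller, with Snapc5 at -0.21, Gtf3c6 at -0.17 and Polr3k at -0.16, for which the groups overlapped.

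Genes of tRNA maturation and export were called higher for 15 of 27 and lower for 6 (all tested genes: 35.8% and 35.4%). Pop4 (chr7:38262812-38271393), a protein subunit of RNase P and RNase MRP, had a signal of 79.7, 74.7 and 75.0 in WT and 24.9, 23.1 and 22.4 in Dnmt1-/-, a log2 fold change of -1.68 ± 0.058 (SE, limma adjusted p = 6.8e-18). Rpp25, of the same enzymes, was lower at -0.69, and Rpp14, also of RNase P, was higher at 0.73, so the subunits did not move in one direction. Elac2, which trims tRNA 3′ ends, was higher at 0.67. Of the tRNA splicing endonuclease, Tsen54 was higher at 0.88 and Tsen34 lower at -0.56.

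Protein partners of SRP, 7SK, Y and nascent polymerase III RNAs were called higher for 7 of 14 and lower for 1 (all tested genes: 35.8% and 35.4%). Srp54b and Srp54a, copies of an SRP subunit that are near identical and can share reads, were both higher at 0.87. Hexim1, through which 7SK inhibits P-TEFb, was higher at 0.59. Trove2, the Ro protein that binds Y RNAs, was the 1 lower gene at -0.49. For spliceosomal snRNP assembly 21 of 32 genes were higher and 3 lower, with the same background. Gemin5, the snRNA-recognising protein of the SMN complex, led at 1.01, followed by Ints8, of the complex that cuts snRNA ends, at 0.57 and Snrpc at 0.56, and the falls were Gemin7 at -0.37, Snrpg at -0.22 and Snrpe at -0.21, for which the groups overlapped.

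Of 19 genes of pericentric and centromeric heterochromatin, 11 were higher and 3 lower (all tested genes: 35.8% and 35.4%). Cenpa, the histone of the centromere, was higher at 0.71, from 68.7 ± 2.58 to 113 ± 5.08 (SD, n = 3), and the chromatin remodeller Atrx at 0.57. The HP1 proteins, which bind methylated H3K9, did not all move one way. Cbx1 (HP1 beta) was higher at 0.54 and so was Cbx3 (HP1 gamma) at 0.31, named after its value was seen, whereas Cbx5 (HP1 alpha) was lower at -0.49, from 408 ± 19.5 to 291 ± 14.8. Cdca7 was lower at -0.12, where the groups overlapped.

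**Figure D4:**
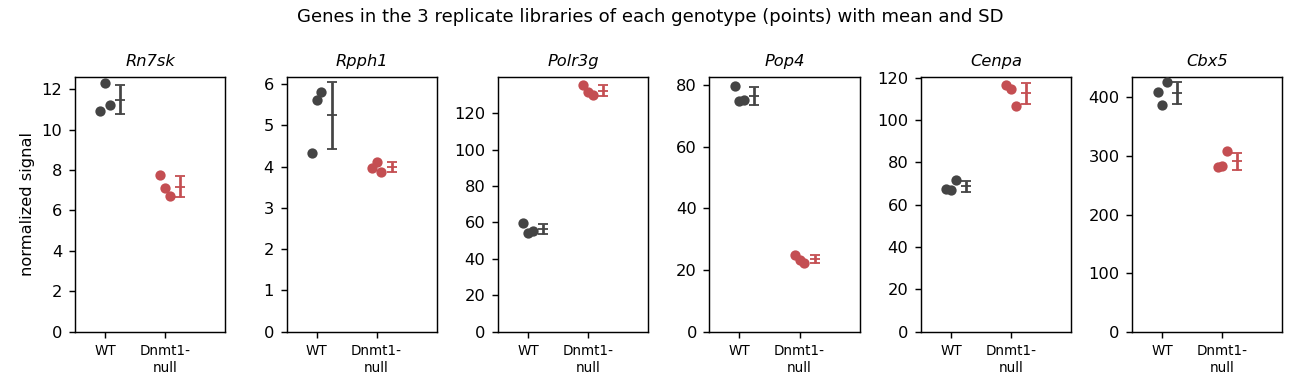
Normalized signal of 6 genes in the 3 WT and 3 Dnmt1-/- replicate libraries, with 1 point per library, the mean and SD beside the points and a separate scale from 0 in each panel. Rn7sk, Rpph1, Pop4 and Cbx5 are lower and Polr3g and Cenpa higher in Dnmt1-/-, and none of the 6 pairs of groups overlaps. Of all tested genes 71.2% were called, and the share of them without overlap was not counted.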

How the data were processed

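Whole counts per gene and per RepeatMasker subfamily were deposited by the authors for 4 single libraries, and for 6 replicate libraries they deposited a normalized signal per gene. Submitters' notes name mm10, TopHat2 2.0.11, Bowtie2 2.2.2, HISAT2 2.1.0 and featureCounts 1.5.0. By the study's methods repeat reads were placed at 1 position each, so reads of near-identical copies are placed at random. For the IAP analysis the methods also describe removal of rRNA and mRNA reads before repeats were counted. Whether this applied to the repeat counts used here is not given, and their rRNA row held counts in every library. Use of strand in counting is not given in the sources used here. The labels name the TruSeq RNA kit and the methods TruSeq Stranded mRNA, which differ in keeping strand.

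Members and lists were chosen with earlier results of these data known. Member counts were divided by total gene counts and compared on log2(cpm + 0.5) among rows with at least 100 counts in the pair, at 2-fold. Named were the 5 members of each class with most counts, those called, those nearest the threshold, and in each list the 3 largest rises and falls among called genes, of which 1 is not reported here. Repeat rows have no length, so ratios between rows are of counts within a library and not of levels. The replicate signal was tested with limma 3.58.1 (trend) on log2(signal + 0.5), Benjamini-Hochberg adjusted. The signal gave back 100% whole reads (within 0.01), 26846275 to 37112247 a library, on which edgeR 4.0.16 (12252 genes called) and DESeq2 1.42.0 (11404) were alternatives to limma (12324). Sequences were searched with blastn 2.17.0 and Biopython 1.88. Symbols were found for 49326 of 49671 gene identifiers. The methods were tested on simulated data. R 4.3.3 and Python 3.11.15 were used, with SciPy 1.17.1, NumPy 2.4.6, pandas 2.3.3 and, for plots, matplotlib 3.10.9.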

Additional observations from a re-analysis of the deposited data

How the results depend on the processing

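With 1 library per condition, no count of members rests on replicates, and each moved with the scaling. Main counts of members at least 2-fold different were 0 (dCas9-OGA against dCas9-OGA-D242A), 3 (Dnmt1-/- against WT), 4 (dCas9-OGA against WT) and 5 (dCas9-OGA-D242A against WT). On the total of repeat counts without the rRNA row they became 1 for dCas9-OGA against dCas9-OGA-D242A, 1 for dCas9-OGA against WT and 3 for dCas9-OGA-D242A against WT. On the total of DNA transposon counts they became 5 for Dnmt1-/- against WT, 1 for dCas9-OGA against WT and 2 for dCas9-OGA-D242A against WT. Relative to the median repeat row they were 1, 1 and 3 for dCas9-OGA against dCas9-OGA-D242A, dCas9-OGA against WT and dCas9-OGA-D242A against WT. In dCas9-OGA against dCas9-OGA-D242A a minimum of 30 counts gave 1 and no minimum gave 2, since more rows were compared. Under every one of these settings MMSAT4 and both rows marked (m) were higher in Dnmt1-/- than in WT. The other settings left the counts within 1.5 times. Leaving tRNA-Gln-CAA_ out of the other tRNA rows was chosen after seeing the data.

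The 89 genes called in the lists became 86 to 89 with other tools, pseudocounts or no filter, and 81 to 91 without any one replicate. With a replicate block 90 were called. Deviations of same-numbered libraries correlated at 0.074, -0.016 and 0.065, so the numbers were not taken to pair the samples.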
